A study of Drosophila melanogaster with 3 samples.

Results

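The cytoplasmic ribosomal protein genes encode the proteins that, with ribosomal RNA, build the large (60S) and small (40S) subunits of the ribosome. They were chosen by name, as the protein-coding genes whose symbol begins with RpL or RpS and a digit, or with RpLP, in the RefSeq gene table of the dm6 genome, and there were 92 of them among 13922 protein-coding genes. Open chromatin was measured by ATAC-seq, in which a transposase cuts accessible DNA and tags it for sequencing, in the abdominal epidermis of Drosophila melanogaster pupae 38 to 45 h after puparium formation. There was a single group, wild type, with 3 replicates, each made from 50 pupae, and the labels give no sex. The abdominal cuticles were dissected and the internal organs taken out, so that the epidermal cells held by the cuticle remained. The values came as 1 merged peak list, so no value below has a replicate error.

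Ribosomal proteins are needed in near-equal amounts in every growing cell, and loss of a single copy of many of these genes gives the slow growth and thin bristles of the Drosophila Minute mutants. Most are single-copy in the fly, and a minority have a second copy, which for some genes, such as RpL22-like and RpS19b, is known for expression in the germline. Their transcripts carry the terminal oligopyrimidine tract through which the TOR pathway controls translation, and many of them host small nucleolar RNAs (snoRNAs) that guide the modification of ribosomal RNA.

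Of the 92 ribosomal protein genes, 81 (88.0%, exact binomial 95% interval 79.6 to 93.9%) had the summit of at least 1 peak within 500 bp of either end of the gene, here called a gene-end summit. Among all protein-coding genes the background was 65.6% (9127 of 13922). The peaks themselves were close to the usual height. The fold enrichment, which is the authors' ratio of reads over the summit to the local background, had a median of 2.59 over the members with a peak (interquartile range 2.13 to 2.94), against 2.47 over all protein-coding genes with one (2.11 to 2.83), taking the highest peak of each gene. A fold enrichment of 3 or more was reached by 16 of 92 members (17.4%), against a background of 10.7%. These shares include genes without a peak: among genes with one the counts were 16 of 81 and 1495 of 9127. Members also had more summits per gene to take the highest from, 1.50 against 0.979. Set against the quartiles of all genes, 28 of the 81 members with a peak (34.6%) lay above the third quartile, 2.83, and 20 (24.7%) below the first, 2.11.

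The list held 34718 peaks, with a median fold enrichment of 2.01 (lowest 1.27, highest 4.45) and a median width of 357 bp. The sequencing depth of each replicate is unknown, but the read pileup behind each ratio could be recovered. Its median was 149 reads stacked over the summit (Poisson 95% interval 126 to 175, counting error only) and ranged from 79 to 277. Over the highest peaks of the 81 members the pileup ranged from 114 to 229 reads, and the lowest −log10 q was 5.66. The local background ranged from 57.2 to 99.6 reads. At the lowest background in the list were 15 of the 81 members, against 26.6% of all its peaks. The latter is not a like set, since it holds every peak, distal ones included, and not the highest gene-end peak of each gene. Of genes that mark the epidermis, 8 of 8 had a gene-end summit, among them grh, which encodes the epidermal transcription factor Grainy head (fold enrichment 2.34), and kkv, which encodes a chitin synthase (1.66). So did 4 of 6 muscle markers, 3 of 4 neuron markers, 3 of 4 hemocyte markers and 3 of 4 germline markers. These lists are too short to be told from the 65.6% of all protein-coding genes or from each other. Exact binomial 95% intervals were 63.1 to 100% for epidermis, 22.3 to 95.7% for muscle and 19.4 to 99.4% for each list of 4. A peak is not a measure of expression, and the share of other cells in the samples was not tested.

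**Figure D1:**
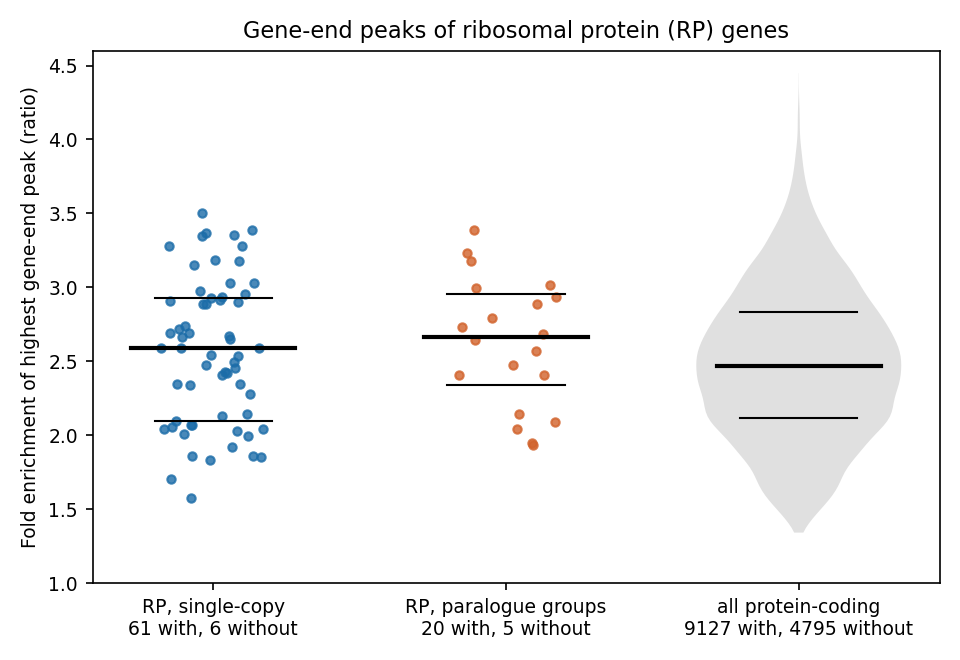
Fold enrichment of the highest gene-end peak, on a linear axis, for each single-copy ribosomal protein gene and each member of a paralogue group, beside the distribution over all protein-coding genes with such a peak. The medians are 2.59, 2.67 and 2.47, and the members spread from 1.58 to 3.51, across most of the range of the other genes.

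The highest fold enrichments were found at 60S and 40S genes alike. RpL21 had the highest, 3.51 (95% Poisson interval of the ratio 3.04 to 4.02, counting error only), in a peak of 759 bp at 2L:22247237-22247995 that covered most of this 765 bp gene. RpS30, whose mammalian counterpart is made as a fusion with a ubiquitin-like protein, reached 3.38. RpS28-like had the same value, but at a summit 270 bp from it and 28 bp from numb, in a peak that covered none of its bases. RpL15 followed with 3.37, RpL30 with 3.35 and RpS26 with 3.35. The counting intervals of these 6 genes overlap, so their order is not resolved. RpL21, RpS30, RpS28-like and RpL15 stood on the lowest background in the list, 57.2 reads, with pileups of 195 to 203 reads. RpS28a had more reads, 229, but over a background of 75.8, and its ratio was 2.99.

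The lowest values were found at RpS3, RpS23, RpL37A and RpL28. RpS3, which lines the mRNA entry channel, had 1.58 (1.33 to 1.86), with 141 reads over a background of 89.0, and RpS23, a protein of the decoding centre, had 1.71 (1.43 to 2.03). RpL37A had 1.83 (1.51 to 2.20) and RpL28 had 1.85 (1.59 to 2.15). Both 40S summits lay outside the gene, 298 bp from RpS3 and 426 bp from RpS23, and no base of either gene fell in a peak. The counting intervals of these 4 genes do not reach those of the 6 highest.

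The acidic stalk, the arm of the 60S subunit that recruits translation factors, is built by RpLP0, RpLP1 and RpLP2, and all carried peaks of low to middling height: 2.09, 2.42 and 2.07. RpL5 and RpL11, which bind the 5S ribosomal RNA, had 2.69 and 2.74. RpL10, a protein that in yeast joins the 60S subunit late, had 3.28 with a summit 7 bp inside the gene, and RpL3, at the peptidyl transferase centre, had 2.67. RpL40 and RpS27A, both made as fusions with ubiquitin, had 2.46 and 2.10. RpS6, the target of S6 kinase, had 2.89, RpS2, which with RpS3 borders the mRNA channel, had 2.47, and RpS13 had 2.01. By subunit, 46 of 54 large-subunit genes (85.2%) and 35 of 38 small-subunit genes (92.1%) had a gene-end summit, with median fold enrichments of 2.62 and 2.57. The binomial intervals of these shares, 72.9 to 93.4% and 78.6 to 98.3%, overlap.

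RpL5, RpL15 and RpL38 lie in the gene-poor heterochromatin next to the centromeres, a fact from earlier genetics that led to their being grouped here after their values were seen. RpL5 had 86.7 kb of sequence nearer to it than to any other protein-coding gene, RpL15 had 61.3 kb and RpL38 had 38.4 kb. All carried a gene-end summit, with fold enrichments of 2.69, 3.37 and 3.28, and each had 2 further summits beyond 500 bp of any gene end.

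Members often held more than 1 accessible site. There were 1.50 gene-end summits per member, against 0.979 per protein-coding gene, and 41 of 92 members had 2 or more. Of all members, 29.3% had 2 summits, 13.0% had 3 and 2.17% had 4, against 20.5%, 4.98% and 0.575% of all protein-coding genes. Among genes longer than 1000 bp, where the windows of the ends are distinct, 18 of 67 members (26.9%) had a summit at each end, against a background of 15.5%. No peak was counted for more than 1 member.

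RpS16 was among the 2 members with 4 summits. Its fold enrichments were 2.23 and 2.71 at 353 and 54 bp outside one end, 3.03 at 356 bp inside it, and 2.49 at 244 bp outside the other. The 3 outer summits of RpS16 were nearer to CG4294 or Vps20 than to RpS16 itself. Such sites between neighbours were counted for each gene they flank.

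The summits gathered close to the gene ends. Of 138 gene-end summits of members, 47.8% lay within 100 bp of the end, against 39.0% of 13634 summit and gene pairs over all protein-coding genes, and the median distances were 114.5 bp and 175 bp. Within 200 bp the shares were nearly equal, 54.3% and 53.0%, so the excess of members was confined to the first 100 bp. The first 100 bp outside the gene held 31.2% of the members' summits, against 27.8%, and the first 100 bp inside held 15.9%, against 11.2%. The next 100 bp inside held 1.45%, against 4.49%. Summits inside the gene were 36.2% for members and 33.1% for all protein-coding genes.

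**Figure D2:**
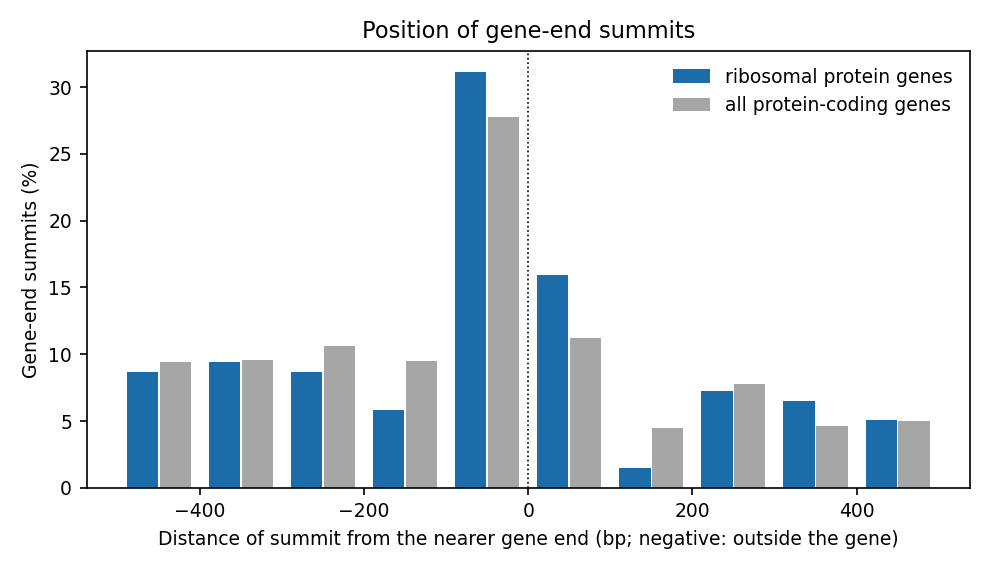
Share of gene-end summits, in percent, by distance from the gene end in bins of 100 bp, negative outside the gene and positive inside, for ribosomal protein genes and for all protein-coding genes. The bin just outside the end is the highest in each set, at 31.2% and 27.8%, and the bin from 100 to 200 bp inside is the lowest, at 1.45% and 4.49%.

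The members' peaks were more often narrow or broad, and less often of middle width, than those of all genes. Widths under 300 bp were found in 39.5% of the 81 members with a peak, against 31.8% of all genes with one, widths of 600 bp or more in 46.9%, against 37.2%, and widths between in 13.6%, against 30.9%. Their widths had a median of 540 bp and quartiles of 216 and 802 bp, against 467 bp and quartiles of 242.5 and 733 bp for all genes. The broad peaks were also the higher ones, with a median fold enrichment of 2.94 against 2.12 for the narrow peaks of members, and in all genes the same medians were 2.79 and 2.13. The widest peaks lay at RpS28a (2002 bp), RpS19b (1339 bp), RpL7-like (1319 bp) and RpS26 (1319 bp), and the narrowest at RpL35 (155 bp), RpL35A (158 bp) and RpL10Ab (159 bp).

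The fold enrichment is a ratio, and both of its parts were slightly higher at members. The pileup had a median of 183 reads over the members and 171 over all genes with a gene-end peak, and the background a median of 69.0 and 64.6 reads. The narrow peaks of members stood on a median background of 74.2 reads, against 64.9 reads under the broad ones, and their median pileups were 170.5 and 195 reads. Over all genes with a peak the order of the backgrounds was the opposite, 63.1 reads under narrow and 66.5 under broad peaks. The pileups there were 146 and 194 reads.

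**Figure D3:**
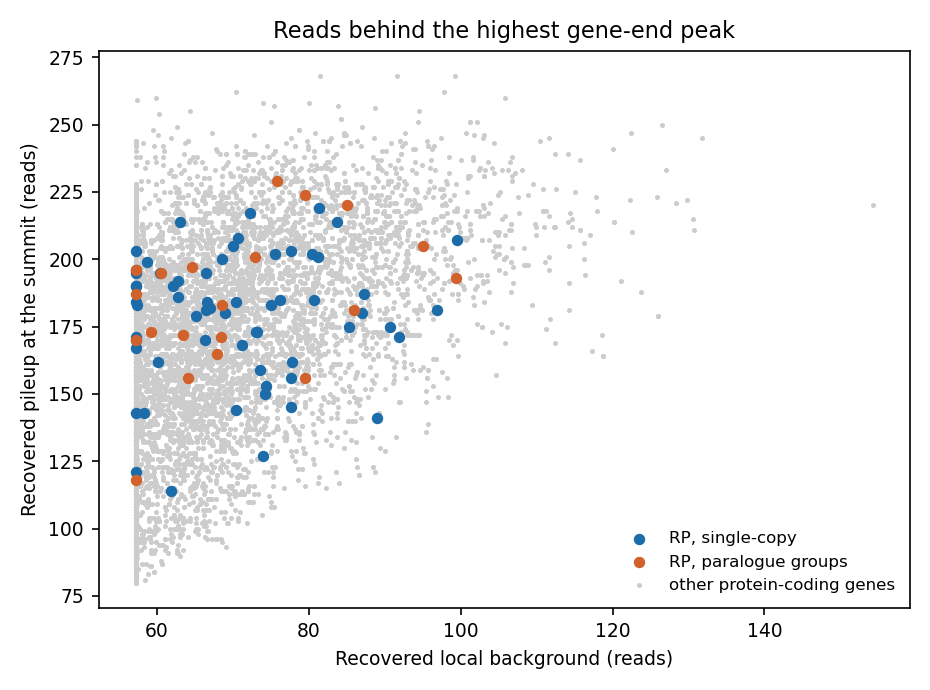
Recovered read pileup at the summit against the local background, both in overlapping reads, for the highest gene-end peak of each ribosomal protein gene over those of all protein-coding genes. The members run from 114 to 229 reads of pileup, and 15 of them sit at the lowest background, 57.2 reads. The same background holds 26.6% of all peaks in the list, distal ones included, which is not a like set.

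Ribosomal protein genes are short genes (median length 1315 bp, against 2163 bp). The share with a gene-end summit was higher in every length class: 76.0% against 40.1% under 1000 bp, 89.7% against 56.7% from 1000 to 1500 bp, 95.5% against 68.0% from 1500 to 2500 bp, and 100% of 6 members against 77.0% from 2500 to 5000 bp. The 6 members with no other gene end within 1000 bp had a summit in 5 cases (83.3%), against 46.0% of such genes. All 16 members with 4 or more other genes that near had one, against 68.1%. Other genes here include snoRNA genes inside the member, and all 16 of these members hold at least 1. This share therefore overlaps with that of the snoRNA hosts given below. Over the whole gene, peaks covered a median of 21.1% of a member's span, against 8.06%.

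Beyond the gene ends the order was the opposite. Distal summits, those over 500 bp from the end of any annotated gene, were assigned to the nearest protein-coding gene end, and 17 of 92 members (18.5%) had at least 1, against a background of 39.5%. The 29 distal summits of the members gave 0.589 per 10 kb of sequence nearest to them, against 1.78 per 10 kb for all protein-coding genes. That sequence was short, with a median of 1.88 kb per member against 3.93 kb per gene, which leaves less room beyond 500 bp. Among protein-coding genes in the members' range of gene length, 27.1% had a distal summit, at 1.48 per 10 kb. The members' density is pooled over 493 kb, of which RpL5, RpL15 and RpL38 held 86.7, 61.3 and 38.4 kb with 2 distal summits each. RpL22-like had the most, 7 in 10.1 kb, and RpS10a had 4 in 8.86 kb.

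For 69 of 92 members (75.0%) a gene-end summit lay nearer to the member than to the end of any other annotated gene, snoRNA genes included, against a background of 52.8%. The measure was added after the values were seen, because gene ends crowd together here. The 12 other members with a summit had only summits as near or nearer to a neighbour. They included the single-copy genes RpL13A (neighbour Spec2), RpL14 (Nelf-E), RpS21 (CG2991), RpS27A (Ip259, at equal distance) and RpS6 (CR33222). At RpL13 the peak of 2.96 lay 20 bp outside the gene and 64 bp from Dref, which encodes a transcription factor known to act at many growth genes, so the same peak serves as the gene-end peak of both.

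There were 67 single-copy members, and 25 members formed 12 paralogue groups, in which symbols differ by a final a or b or by the ending -like. A gene-end summit was found at 61 of 67 single-copy genes (91.0%, 81.5 to 96.6%) and at 20 of 25 paralogue members (80.0%, 59.3 to 93.2%). The exact binomial intervals overlap. Median fold enrichments were 2.59 and 2.67, and median widths 540 bp and 446 bp. With a window of 250 bp the shares with a summit were 85.1% and 48.0%, given no intervals, so the gap depends on the window. In the 500 bp window the classes differed by more in which gene a summit lay nearest to. At 56 of 67 single-copy genes (83.6%, 72.5 to 91.5%) and 13 of 25 paralogue members (52.0%, 31.3 to 72.2%) a summit was nearer to the member than to any other gene. These intervals miss each other by little, and the 5 genes named -like, with 0 of 5, carry much of the gap: without them, a division made after the values were seen, 13 of 20 paralogue members (65.0%, 40.8 to 84.6%) had such a summit, and that interval overlaps the one for single-copy genes. Peaks at each end were found in 18 of 53 single-copy genes over 1000 bp and in 0 of 14 such paralogue members. A limit of 3 counts puts the latter share at up to 21.4%, which is not an exact binomial limit like those above. These 2 shares were not compared by like intervals. Peaks covered a median of 24.9% of the span of single-copy genes and 7.10% of that of paralogue members. The rule counts RpL37-1 (2.41) and RpL37-2, which has no gene-end summit, as single-copy, although their names mark them as copies.

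In 7 of the 12 groups every copy had a gene-end summit and in 5 only 1 copy did. Counting only summits nearest to the copy itself, exactly 1 copy had one in 9 groups, both in RpS10 and RpS15A, and none in RpS14.

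Groups with a summit at 1 copy included RpL10A, RpL22, RpL34 and RpS14. RpL10Ab had 1.95 with a summit 23 bp outside the gene, and the nearest summit to RpL10Aa was 33395 bp away. RpL22 had 1.93, with a summit 5 bp outside, and RpL22-like had none nearer than 974 bp. RpL34b had 2.64 and RpL34a none nearer than 1807 bp. RpS14a and RpS14b are tandem copies on X, 220 bp apart, that are known to encode the same protein. The single summit of that pair, 2.57, was 425 bp outside RpS14b and nearer to Ubr3 (321 bp), and none of RpS14a's bases fell in a peak.

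In 5 of the other 7 groups, the second copy owed its peak to a summit nearer to another gene. RpL24 had 2.47 with a summit 1 bp from its end, while the 3.01 of RpL24-like lay 278 bp from that gene and 122 bp from CG5276. RpL7 had 2.69 at 12 bp, while the 3.18 of RpL7-like lay 353 bp from it and 69 bp from JhI-21. RpLP0 had 2.09, and the 2.15 of RpLP0-like lay 52 bp from it and 35 bp from 14-3-3zeta. RpL24-like, RpL7-like and RpLP0-like resemble yeast proteins that act in ribosome assembly.

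RpS28b had 2.41 with a summit 26 bp outside the gene. The values at the other copies of RpS28 were higher, 2.99 for RpS28a and 3.38 for RpS28-like, but those summits were nearer to Mgat2 (37 bp, against 161 bp to RpS28a) and to numb (28 bp, against 270 bp to RpS28-like). The whole of RpS28a, 304 bp long and the shortest member, lay inside its 2002 bp peak, and no base of RpS28-like lay in a peak. RpS19a had a 2.79 peak nearer to Rok (25 bp, against 455 bp) and a smaller one of 1.89 nearest to RpS19a itself. The 2.73 peak of RpS19b was 10 bp from CG5854 and 392 bp from RpS19b, of which no base was covered.

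The remaining groups had a summit nearest to each copy. RpS10b had 2.94 (2.52 to 3.41) and RpS10a 2.04 (1.70 to 2.45), and these counting intervals do not overlap. The summit of RpS10a lay 372 bp outside the gene, with 118 reads. RpS15Aa had 2.89 and RpS15Ab 2.41. The RpS15Ab peak was nearer to Lsm10 (11 bp, against 25 bp), and a peak of 1.85 lay inside RpS15Ab. Of the 7 groups with a peak at every copy, 5 had overlapping counting intervals. The RpS10 copies were apart, and in RpS28 the interval of RpS28-like (2.93 to 3.89) was apart from that of RpS28b (2.05 to 2.82), while that of RpS28a (2.62 to 3.41) overlapped both. None of the 5 genes named -like had a summit nearest to itself. How the authors treated reads that match several copies equally well is not stated in the labels, so closed chromatin and a lack of uniquely placed reads cannot be told apart at a copy without a peak.

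**Figure D4:**
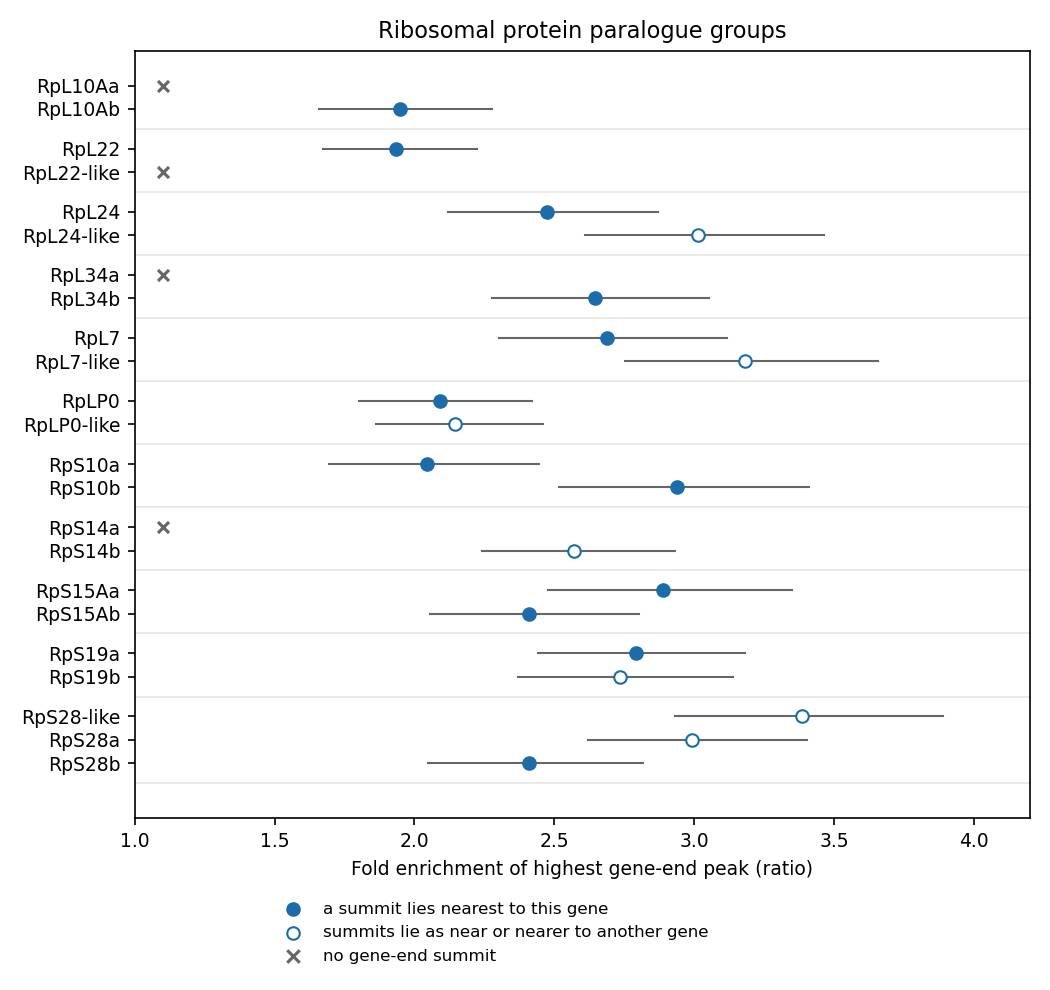
Fold enrichment of the highest gene-end peak of each copy in 11 of the 12 paralogue groups, with 95% Poisson counting intervals. Filled points have a gene-end summit nearest to that copy, open points only summits as near or nearer to another gene, and crosses mark the 4 copies without one; 12 points are filled and 7 are open.

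The 11 members without a gene-end summit included RpL8, RpL12, RpL26, RpL39, RpL37-2 and RpS24, which count as single-copy, and the paralogue members RpL10Aa, RpL22-like, RpL34a and RpS14a. RpL8 and RpL39, proteins of the peptidyl transferase centre and of the exit tunnel, had their nearest summits 864 and 1338 bp away, and RpL12, at the base of the stalk, 711 bp away. RpL12 and RpL39 are neighbours on 2R that overlap by 8 bp. RpS24 had none nearer than 2678 bp and RpL37-2 none nearer than 2842 bp. RpL26 missed the limit by little, with a summit of 1.47 at 515 bp, and 13.3% of its span lay in a peak, while no base of the other 10 did. Just inside the limit, taking each member's nearest summit, were RpS23 at 426 bp (1.71), RpS14b at 425 bp (2.57) and RpS19b at 392 bp (2.73). A gene without a listed peak is not shown to be closed, since its signal may be under the caller's threshold.

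Many members host snoRNAs: 28 of 92 (30.4%) contained at least 1 annotated snoRNA gene, against 0.690% of all protein-coding genes, and they held 74 of the 218 snoRNAs found inside protein-coding genes. RpS7 held 7, and RpL28 and RpS16 held 5 each. All 28 hosts had a gene-end summit, against 53 of the 64 members without a snoRNA. Hosts were also longer (median 1888 bp, against 1126 bp for non-hosts). Among all protein-coding hosts, these 28 members included, 88 of 96 (91.7%) had a summit. By chromosome arm, a summit was found at 19 of 19 members on 2L (62.4% of all protein-coding genes there), 13 of 14 on X (64.0%), 20 of 23 on 3R (66.0%), 12 of 14 on 3L (67.1%) and 16 of 21 on 2R (67.3%). RpS3A, the only member on chromosome 4, had one too, as did 78.8% of the genes there.

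Other genes of protein synthesis gave similar shares and heights. Of 73 nuclear genes for mitochondrial ribosomal proteins, 64 (87.7%) had a gene-end summit, with a median fold enrichment of 2.56, so the share was within 1 percentage point of the 88.0% of the cytoplasmic set. The other traits of the cytoplasmic set were seen there too. There were 1.47 gene-end summits per gene, 69.9% of genes had one nearest to the gene, and 17.8% reached 3. Peaks covered a median of 19.7% of the span, and 6.85% of genes had a distal summit (0.208 per 10 kb). Of 51 translation initiation and elongation factor genes, 42 (82.4%, median 2.51) had a gene-end summit. They had 1.31 per gene, 60.8% had one nearest to the gene, and 33.3% had a distal summit. Of 48 proteasome genes, the machinery of protein breakdown, 31 did (64.6%, median 2.54), but this list holds extra copies whose symbols end in R or T, with or without a digit. Divided after the values were seen, 27 of 32 main subunits (84.4%, 67.2 to 94.7%) and 4 of 16 such copies had one. The share of main subunits was close to the 88.0% of the ribosomal protein genes, but that list keeps its copies. Single-copy ribosomal protein genes had 91.0%, which lies inside the interval of the main subunits. The 40S components with other names, sta and Rack1, both had one (2.56 and 2.02). So did 9 of 9 ribosome assembly genes, led by Nop60B, the pseudouridine synthase that works with H/ACA snoRNAs (3.57), and 9 of 9 regulators of growth, translation or ribosomal protein genes, such as Myc (2.60), S6k (2.57), mTor (3.06), M1BP (2.54) and Thor, which encodes the 4E-BP translation repressor (2.24).

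**Figure D5:**
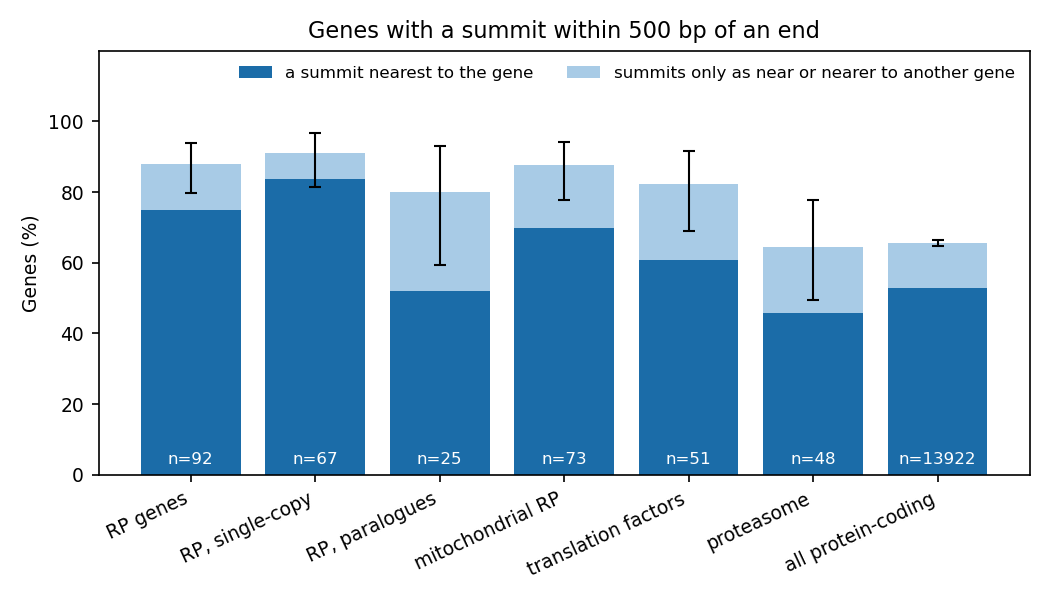
Percent of genes with a gene-end summit in each gene list, with exact binomial 95% intervals, split into genes with a summit nearest to the gene (dark) and genes whose summits lie as near or nearer to another gene (light). The last bar, all protein-coding genes, reaches 65.6%. The cytoplasmic and mitochondrial ribosomal protein lists sit at 88.0% and 87.7%, and the whole proteasome list, extra copies included, at 64.6%.

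The table gives gene spans without strand, so a gene-end summit may lie at the 3′ end, and promoters, exons and UTRs were not separated. The intervals treat genes as independent, which neighbours that share a peak are not.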

How the data were processed

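Per the labels' protocols, 3 wild-type replicates were prepared by Omni-ATAC with an IGEPAL lysis buffer. The submitters' processing notes name BWA, SAMtools, Picard, MACS2 and dm6; versions, settings, duplicates, multi-mapping reads and the merging of replicates are not stated there. The authors deposited 1 peak list with a fold enrichment (a linear ratio over local background), each summit's −log10 p and −log10 q values, and a display score, which was not used.

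The whole-number pileup and its background were recovered from the deposited ratio and −log10 p (tolerance 0.002, largest residual 0.00014), by steps tested on simulated data. Python 3.11.15, numpy 2.4.6, pandas 2.3.3, scipy 1.17.1 and matplotlib 3.10.9 were used. Summits were placed against the RefSeq table of the dm6 assembly, with 1-based coordinates, and each gene takes its highest peak with a summit within 500 bp of an end. Intervals, at 95%, are Clopper-Pearson for shares and Poisson for pileups and cover counting error only; a count of 0 is given a limit of 3 counts. No groups or replicates could be compared and no test was made.

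The members and lists were chosen with earlier results of these data known. The rule for named genes takes all paralogue members, members without a summit, the extremes of height, width and number of summits, and 12 fixed members. RpS3A, RpL13, RpL13A, RpL14, RpL37-1, RpL38, RpS7, RpS21 and neighbouring genes were named after their values were seen. Alternatives covered the window (250 and 1000 bp), the peak threshold, isolated ends, overlap in place of summits and 1 value per peak. A few named items are not reported here.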

Additional observations from a re-analysis of the deposited data

How the results depend on the processing

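Of 60 values under 9 alternative settings for 8 results, 43 stayed within their counting interval or spread. In each setting with an all-gene share, the share of ribosomal protein genes was the higher one. For isolated ends that share rests on 18 members and was given no interval. With a window of 250 bp, 75.0% of ribosomal protein genes had a summit, 85.1% of single-copy genes and 48.0% of paralogue members. Distal summits were 1.12 per 10 kb with 250 bp and 0.304 with 1000 bp. With only the peaks above the median −log10 q the share was 77.2% (single-copy 79.1%) and the distal density 0.101. Over ends with no other gene end within 1000 bp, the share was 61.1% of 18 members, 69.2% of 13 single-copy genes and 40% of 5 paralogue members; the median fold enrichment was 2.98 over members and 3.18 over single-copy genes, and the width 713 bp. With 1 value per peak the median fold enrichment was 2.27 (single-copy 2.23). With summits nearer to the member than to any other gene, an alternative chosen after seeing the data, the shares were 75.0% and, for paralogue members, 52.0%. All-gene shares were 52.2% at 250 bp, 75.9% at 1000 bp (members 92.4%), 72.1% by overlap (members 90.2%), 52.5% for the stronger peaks, 43.0% for isolated ends and 52.8% for nearest summits. The causes were not tested beyond the narrower definitions themselves. No paired analysis was possible because there is 1 group in 1 merged list, and no replicate could be left out; summits at starts alone were not run, without strand. Depth per replicate is unknown.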
